A study of Mus musculus with 15 samples.

Results

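Toll-like receptors, the co-receptor CD14 and the NF-kB genes form 1 signalling chain, and 10 of its genes were followed in forebrain RNA of mice: Cd14, Tlr2, Tlr3, Tlr4, Tlr7, Myd88, Nfkbia, Nfkbiz, Nfkb1 and Nfkb2. The genes were chosen with earlier results of these data known. Their probe sets were found as all those annotated to 1 of these symbols, without use of their measured values. This gave 22 of 45037 probe sets and 9 of 18193 named genes, because the annotation used here lists no probe set under Nfkb1, which is not analysed here. Of the 9 genes, 8 were bright enough to be tested, with 13 probe sets, and Tlr7 was not. The 3 groups held 5 arrays each: EPO-HI (arrays 11 to 15) received 5 U of erythropoietin per g by intraperitoneal injection and then underwent hypoxic ischemia, VEH-HI (6 to 10) received vehicle and hypoxic ischemia, and VEH-Sham (1 to 5) received vehicle and sham surgery. Every injection came 1 h before the procedure, and no group had erythropoietin with sham surgery. The sources used here do not give strain, age, sex, hemisphere or the time from injury to sampling. The labels do not call the samples separate animals, so each p-value reflects only the spread among these 15 arrays, and that spread may be technical.

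Toll-like receptors are membrane proteins that recognise microbial molecules and molecules released by damaged cells. TLR4 works with CD14, which hands lipopolysaccharide to it, while TLR3 and TLR7 sense double- and single-stranded RNA inside endosomes. Most of these receptors signal through the adaptor MyD88 to the kinases that remove the inhibitor IκBα, product of Nfkbia, from NF-kB. Freed NF-kB enters the nucleus and switches on inflammatory genes, among them Nfkbia itself, which closes a feedback loop. In the brain these receptors are best known from microglia, the resident macrophages, and from cells that enter from blood.

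Array medians left 1 wide gap, which no label accounts for, and the arrays are named here by their side of it. VEH-Sham 1 to 4 (set A) had median intensities of 55.4 to 58.0, while VEH-Sham 5 and all 10 hypoxic ischemia arrays (set B, 11 arrays) had 39.3 to 44.5. For 4 of 5 VEH-Sham arrays, set and group therefore cannot be told apart. For the genes named, differences from VEH-Sham are set beside the difference from VEH-Sham 5 alone. Levels are log2(intensity + 16), and differences on this scale understate the changes of dim genes. A change was called at a limma adjusted p under 0.05 over 27022 tested probe sets, and each gene was counted by its brightest tested probe set. Tested were the 60% brightest by mean over all 15 arrays, so a gene dim in 1 group could pass through groups where it was high.

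Because NF-kB acts on promoters of its own feedback genes, the 250 bases before the transcription start are shown for 4 members, from the RefSeq promoter table (build GRCm38.p6), which held windows for 5 of the 10. Capitals mark the 10-base kappaB consensus, the sequence that NF-kB dimers prefer, on either strand. The Nfkbia window is chr12:55492648-55492897 (minus strand), that of Tlr2 chr3:83841609-83841858 (minus strand), that of Nfkb2 chr19:46304487-46304736 (plus strand, the most upstream of 3 windows) and that of Myd88 chr9:119340019-119340268 (minus strand).
Nfkbia: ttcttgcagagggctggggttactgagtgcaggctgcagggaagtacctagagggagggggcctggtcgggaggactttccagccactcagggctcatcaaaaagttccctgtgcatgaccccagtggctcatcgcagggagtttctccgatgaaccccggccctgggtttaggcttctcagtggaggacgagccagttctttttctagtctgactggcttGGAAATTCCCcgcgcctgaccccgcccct
Tlr2: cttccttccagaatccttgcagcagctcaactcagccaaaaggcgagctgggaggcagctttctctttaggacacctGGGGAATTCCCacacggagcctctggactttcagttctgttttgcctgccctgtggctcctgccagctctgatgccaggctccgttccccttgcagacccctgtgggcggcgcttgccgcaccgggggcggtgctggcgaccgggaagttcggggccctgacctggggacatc
Nfkb2: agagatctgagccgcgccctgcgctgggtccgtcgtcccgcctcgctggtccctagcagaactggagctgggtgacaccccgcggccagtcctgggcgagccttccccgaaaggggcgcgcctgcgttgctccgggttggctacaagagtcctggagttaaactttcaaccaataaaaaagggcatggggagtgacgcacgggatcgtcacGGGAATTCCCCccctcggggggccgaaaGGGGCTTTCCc
Myd88: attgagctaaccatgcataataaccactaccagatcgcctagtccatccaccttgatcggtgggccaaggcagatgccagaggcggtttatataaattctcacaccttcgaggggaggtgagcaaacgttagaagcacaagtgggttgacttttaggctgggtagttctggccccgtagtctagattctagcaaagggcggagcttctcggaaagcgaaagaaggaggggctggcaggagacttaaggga
The Nfkbia window held 1 match, which begins 29 bases before the start. The Tlr2 window held 2 matches that overlap each other, and the Nfkb2 window held 3, of which 2 overlap. The Myd88 window held none, and that of Tlr3, not shown, held 1. Over all 32851 promoter windows of this length in the table, 7.25% held the consensus. These matches are letters in a window and were not tested as binding sites.

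Hypoxic ischemia was compared with sham surgery, both after vehicle, to see what the injury changes. Cd14, Nfkbiz and Nfkbia rose, and no member fell. That is 3 of 8 tested members called higher, where 11.9% of the 13168 tested genes were, and 0 called lower, where 11.5% were. Because the members were chosen with earlier results known, these counts are no independent test of the family. At an unadjusted limma p under 0.05 there were 6 of 8 members and 38.2% of genes. The median difference of the 8 members was 0.46, against -0.02 over all tested genes. No member passed with the array set as a block, where 0.00759% of all genes were called higher, nor within set B, where 0.0228% were.

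Cd14 (1417268_at) had the largest difference of the 8 tested members. In EPO-HI 11 to 15 its level was 8.55, 7.63, 7.19, 7.45 and 8.73, in VEH-HI 6 to 10 it was 8.84, 8.41, 9.21, 7.28 and 7.18, and in VEH-Sham 1 to 4 it was 6.48, 6.03, 6.19 and 6.05, with 6.00 in VEH-Sham 5. All 10 hypoxic ischemia arrays lay above all 5 VEH-Sham arrays, and VEH-Sham 5 lay with the other sham arrays. The groups failed to overlap upward in 4.59% of tested genes for VEH-HI against VEH-Sham and in 3.79% for EPO-HI against VEH-Sham, and downward in 4.09% and 3.63%. Among the 8 members this held upward for Cd14 and Nfkbia in both comparisons and downward for none. Cd14 averaged 8.18 ± 0.92 in VEH-HI and 6.15 ± 0.20 in VEH-Sham (SD, n = 5 each), a 4.09-fold rise (log2 difference 2.03, SE 0.33, limma adjusted p = 0.000822). The difference from VEH-Sham 5 was 2.18. With the array set as a block, where it rests on that array alone, its error was larger (SE 0.59) and the call was lost. Without any single array the difference stayed between 1.78 and 2.28 and the call held (highest limma adjusted p = 0.0034).

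**Figure D1:**
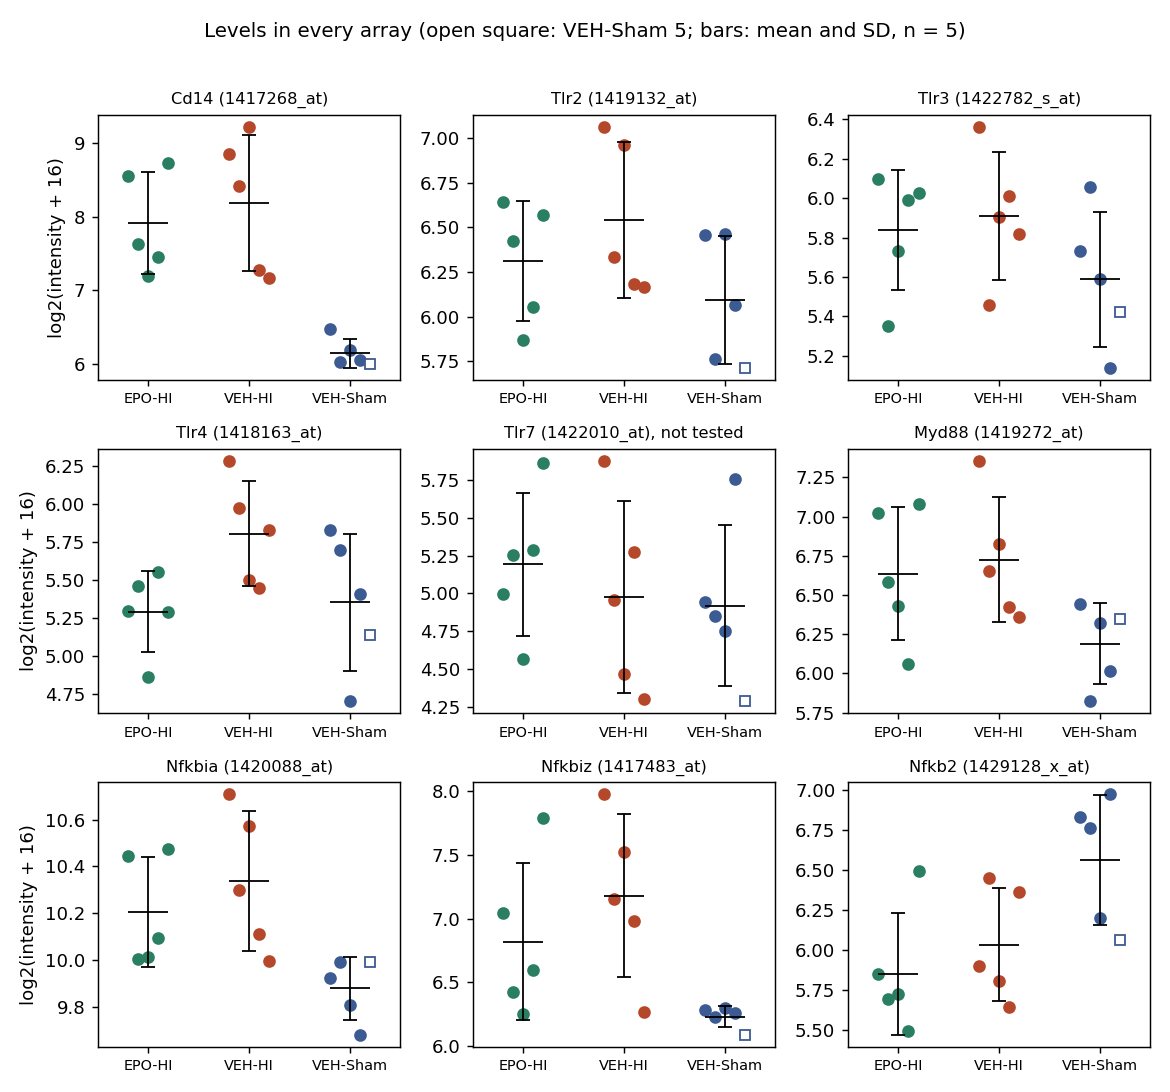
Levels as log2(intensity + 16) of the brightest probe set of each gene in EPO-HI, VEH-HI and VEH-Sham. Points are single arrays, the open square is VEH-Sham 5, and bars give the mean and SD of 5 arrays. All 10 hypoxic ischemia arrays of Cd14 lie above the highest VEH-Sham array, while those of Tlr2, Tlr3 and Tlr4 overlap with it.

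None of the Toll-like receptors passed. Tlr2, the receptor for bacterial lipoproteins, had 6.64, 6.42, 5.87, 6.05 and 6.57 in EPO-HI, 7.06, 6.33, 6.96, 6.18 and 6.17 in VEH-HI, and 6.46, 5.76, 6.46 and 6.06 in VEH-Sham 1 to 4, with 5.71 in VEH-Sham 5. VEH-HI 6 and 8 stood above every VEH-Sham array and the other 3 lay among them. The difference was 0.45 (SE 0.21, limma adjusted p = 0.129, VEH-HI against VEH-Sham), with a 95% interval of 0.00 to 0.89, and 0.83 against VEH-Sham 5. After quantile normalization or equal array medians the differences of Tlr2, Tlr3 and Tlr4 were all called.

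Tlr4, the lipopolysaccharide receptor, is carried by 4 probe sets, of which only 1418163_at passed the filter. On it EPO-HI 11 to 15 had 5.30, 5.46, 4.86, 5.56 and 5.29, VEH-HI 6 to 10 had 6.29, 5.97, 5.50, 5.45 and 5.83, and VEH-Sham 1 to 4 had 5.83, 5.70, 4.70 and 5.41, with 5.14 in VEH-Sham 5. VEH-HI was highest on average, but VEH-Sham 1 and 2 lay inside its range. Averages were 5.81 in VEH-HI, 5.35 in VEH-Sham and 5.29 in EPO-HI, so 1418163_at passed the filter only through VEH-HI. The difference of VEH-HI from VEH-Sham was 0.45 (SE 0.23, limma adjusted p = 0.156) and 0.67 against VEH-Sham 5. On the 3 dim probe sets the difference was 0.28, -0.19 and -0.35 (0.11, -0.11 and -0.0046 against VEH-Sham 5), so the probe sets of Tlr4 did not share a direction.

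Tlr3 had 5.35 to 6.10 (median 5.99) in EPO-HI, 5.46 to 6.36 (median 5.90) in VEH-HI and 5.14 to 6.06 (median 5.59) in VEH-Sham on 1422782_s_at. The groups overlapped widely, with a difference of 0.32 for VEH-HI against VEH-Sham (SE 0.21, limma adjusted p = 0.265), 0.49 against VEH-Sham 5, and 0.14 on the dim second probe set (0.084 against VEH-Sham 5). Tlr7 was among the dim 40% of probe sets on all 3 of its probe sets and was not tested. On the brightest of them, 1422010_at, EPO-HI spanned 4.57 to 5.86, VEH-HI 4.30 to 5.88 and VEH-Sham 4.29 to 5.76. The spans of the 3 groups overlap, and the differences of VEH-HI from VEH-Sham were 0.06, 0.22 and -0.27 on the 3 probe sets, against 0.69, -0.16 and -0.16 from VEH-Sham 5, so the sign of the second turned.

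Myd88, the shared adaptor, did not pass. Its level was 7.03, 6.58, 6.43, 6.06 and 7.08 in EPO-HI, 7.36, 6.65, 6.82, 6.42 and 6.36 in VEH-HI, and 6.44, 5.82, 6.32 and 6.02 in VEH-Sham 1 to 4, with 6.35 in VEH-Sham 5. VEH-HI 6, 7 and 8 and EPO-HI 11, 12 and 15 exceeded every VEH-Sham array. The difference of VEH-HI from VEH-Sham was 0.53 (SE 0.21, limma adjusted p = 0.0641) and 0.38 against VEH-Sham 5. It passed without VEH-HI 10 or without VEH-Sham 5 (lowest limma adjusted p = 0.0464), and after quantile normalization or equal array medians.

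Nfkbiz, which encodes the nuclear inhibitor-like protein IκBζ, had a larger difference than Nfkbia. On 1417483_at it had 7.04, 6.42, 6.25, 6.60 and 7.79 in EPO-HI, 7.98, 7.16, 7.53, 6.98 and 6.26 in VEH-HI, and 6.28, 6.22, 6.29 and 6.26 in VEH-Sham 1 to 4, with 6.09 in VEH-Sham 5. The VEH-Sham arrays were tightly grouped, and 4 of 5 arrays in each hypoxic ischemia group lay above them. VEH-HI 10 and EPO-HI 13 lay among the sham values. It averaged 7.18 ± 0.64 in VEH-HI and 6.23 ± 0.08 in VEH-Sham (SD, n = 5 each), a 1.93-fold rise (log2 difference 0.95, SE 0.27, limma adjusted p = 0.0161), and the difference from VEH-Sham 5 was 1.09. Its other tested probe set, 1448728_a_at, showed no such difference (0.01, SE 0.25, -0.30 against VEH-Sham 5), nor did the dim 1457404_at (0.01, 0.20 against VEH-Sham 5), and the mean over all 3 was 0.33 and not called.

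Nfkbia has 5 probe sets, all tested. On the brightest, 1420088_at, EPO-HI had 10.44, 10.00, 10.01, 10.09 and 10.48, VEH-HI had 10.71, 10.30, 10.57, 10.11 and 10.00, and VEH-Sham 1 to 4 had 9.92, 9.99, 9.81 and 9.68, with 9.99 in VEH-Sham 5. No hypoxic ischemia array reached down to the sham values, but the lowest of each group, 10.00 in EPO-HI and 10.00 in VEH-HI, lay next to the highest VEH-Sham array at 9.99. The rise was 1.37-fold (log2 difference 0.46, SE 0.13, limma adjusted p = 0.0166, VEH-HI against VEH-Sham) and 0.34 against VEH-Sham 5, and was no longer called without VEH-Sham 4 (limma adjusted p = 0.0503) or after quantile normalization. A second probe set, 1448306_at, rose by 0.73 (SE 0.18, limma adjusted p = 0.00822) and stood 0.47 above VEH-Sham 5. The other 3 did not pass, at 0.46 on 1438157_s_at, 0.28 on 1449731_s_at and -0.06 on 1420089_at. Against VEH-Sham 5 alone all 5 were above 0, at 0.34 to 0.57.

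Nfkb2 encodes p100, the precursor of the NF-kB subunit p52, and was the only member of the 8 with a difference below 0. On 1429128_x_at, a probe set type that can also match related transcripts, EPO-HI had 5.85, 5.69, 5.73, 5.50 and 6.49, VEH-HI had 5.90, 6.45, 5.81, 5.65 and 6.36, and VEH-Sham 1 to 4 had 6.83, 6.76, 6.20 and 6.97, with 6.06 in VEH-Sham 5. VEH-Sham 5 lay inside the VEH-HI range and apart from VEH-Sham 1, 2 and 4. The difference of VEH-HI from VEH-Sham was -0.53 (SE 0.22, limma adjusted p = 0.0812) and -0.03 against VEH-Sham 5. Without VEH-Sham 5 the call was made for Nfkb2 (limma adjusted p = 0.0231) and for Myd88, which brought the members called to 5 of 8. In that fit 9616 of 27022 tested probe sets were called, against 6174 with all arrays. It leaves only set A in VEH-Sham, so set and group cannot be told apart. The dim probe set 1425902_a_at was at -0.18, and at 0.22 against VEH-Sham 5, the opposite sign.

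**Figure D2:**
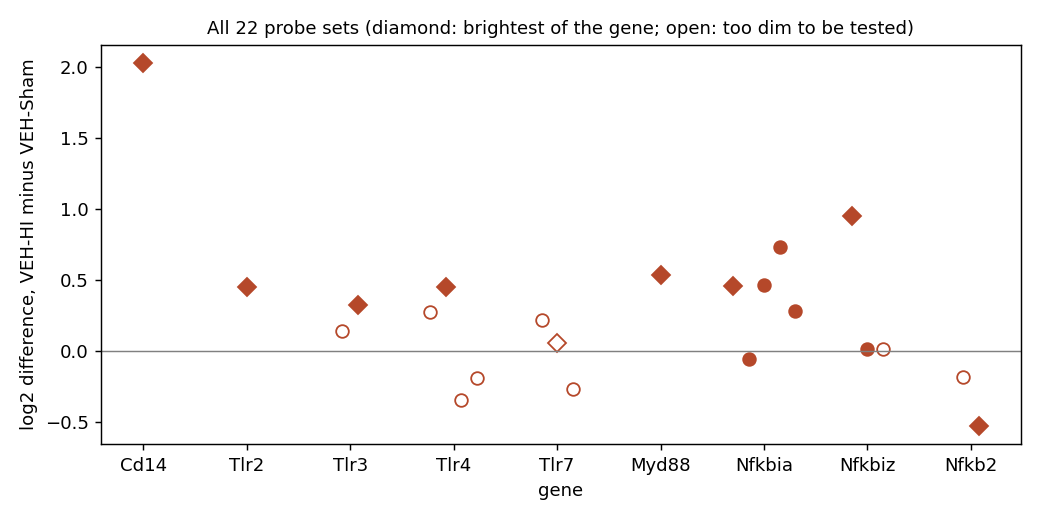
Log2 difference of VEH-HI minus VEH-Sham for all 22 probe sets by gene. Diamonds are the brightest probe set of each gene, filled symbols were tested and open ones were too dim. The 5 probe sets of Nfkbia run from -0.06 to 0.73 and the 4 of Tlr4 from -0.35 to 0.45, while Cd14 has 1 probe set, at 2.03.

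EPO-HI against VEH-HI addresses the effect of erythropoietin given ahead of the injury. Both groups lie in set B, but the errors, intervals and p-values come from the fit of all 15 arrays. No member passed with limma (0 of 8, where 0% of tested genes were called in either direction). At an unadjusted p under 0.05 there was 1 of 8 members, Tlr4, and 464 of the 13168 genes (3.52%). Tlr4 passed the brightness filter only through VEH-HI. All 8 members were on average lower in EPO-HI than in VEH-HI, with a median difference of -0.21, against -0.01 over all tested genes, where 6837 were below 0. The groups overlapped for all 8, where 0.357% of genes did not overlap upward and 0.372% downward.

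Cd14 averaged 7.91 ± 0.69 in EPO-HI and 8.18 ± 0.92 in VEH-HI (SD, n = 5 each), a difference of -0.27 with a 95% interval of -0.97 to 0.42. The interval includes differences of either sign. Tlr4 was at -0.52 (SE 0.23, 95% interval -0.99 to -0.04, limma adjusted p over 27022 probe sets 0.9997), and 3 of 5 EPO-HI arrays lay below every VEH-HI array. Its 3 dim probe sets were at 0.10, 0.01 and -0.12. Nfkbiz was at -0.36 (95% interval -0.91 to 0.19) and Tlr2 at -0.23 (-0.67 to 0.22).

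Narrower intervals were found for Nfkbia, at -0.13 (-0.40 to 0.14), while Nfkb2 was at -0.18 (-0.63 to 0.27). Myd88 stood at -0.09 (-0.52 to 0.34) and Tlr3 at -0.07 (-0.50 to 0.36). The sign of both turned without VEH-HI 6, to 0.07 for Myd88 and 0.04 for Tlr3. It also turned without EPO-HI 14 for Myd88 (0.06) and without EPO-HI 12 for Tlr3 (0.05). The dim Nfkbiz probe set 1457404_at, not tested, had 4.72, 4.49, 4.06, 4.16 and 4.12 in EPO-HI, against 5.17, 5.25, 5.19, 4.94 and 4.66 in VEH-HI, a difference of -0.73. It lies near the floor of the scale, which is 4 for an intensity of 0, and when dim probe sets were kept it did not pass (limma adjusted p = 0.9999). In EPO-HI against VEH-Sham the same probe set was at -0.72 and was called lower when dim probe sets were kept (limma adjusted p = 0.0337), with -0.53 against VEH-Sham 5.

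**Figure D3:**
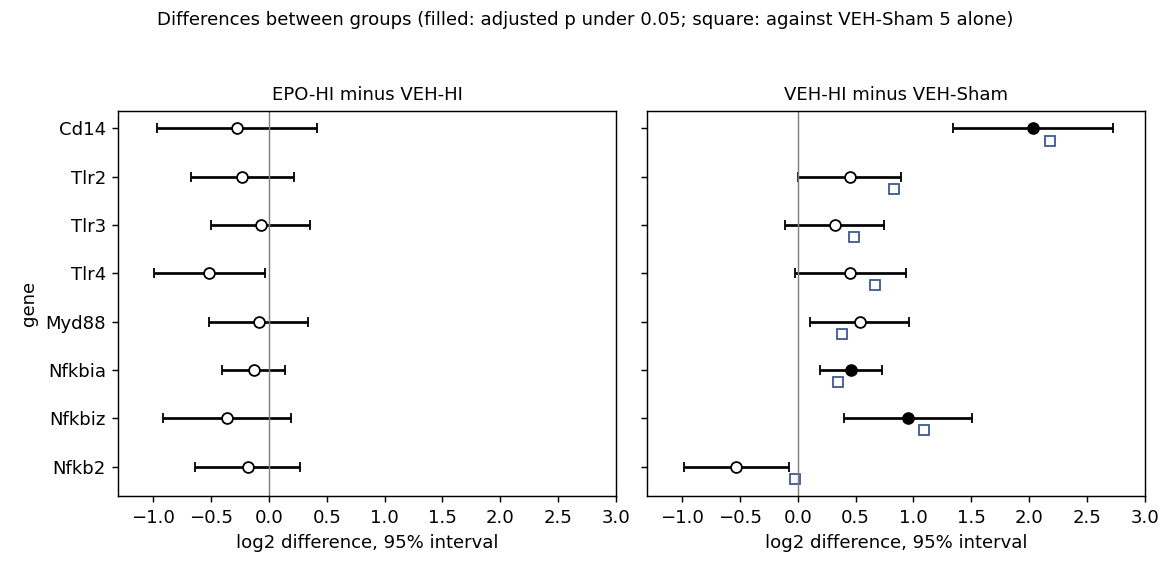
Log2 differences with 95% intervals from limma for the 8 tested genes, EPO-HI minus VEH-HI on the left and VEH-HI minus VEH-Sham on the right. Filled points passed at an adjusted p under 0.05 and squares give the difference from VEH-Sham 5 alone. Cd14, Nfkbia and Nfkbiz are filled on the right, and no gene is filled on the left.

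The third comparison sets EPO-HI against VEH-Sham. It shares the sham arrays with the comparison of VEH-HI and VEH-Sham. Cd14 rose 3.38-fold (log2 difference 1.76, SE 0.33, limma adjusted p = 0.00343, 1.91 against VEH-Sham 5) and Nfkb2 fell by 0.71 on the log2 scale (SE 0.22, limma adjusted p = 0.0292), but stood only at -0.21 against VEH-Sham 5. That is 1 of 8 members called higher, where 8.86% of tested genes were, and 1 lower, where 9.46% were, so neither count stands far from the share of all genes. The call of Nfkb2 was lost without any 1 of EPO-HI 11 to 14 and VEH-Sham 1, 2 and 4 (highest limma adjusted p = 0.0879). Neither gene passed with the array set as a block or within set B, but almost no gene did. Both fits again rest on VEH-Sham 5 alone and are not separate checks. At an unadjusted limma p under 0.05 there were 5 of 8 members and 34.6% of genes.

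The other members did not pass in EPO-HI against VEH-Sham. Nfkbia was at 0.33 on its brightest probe set (limma adjusted p = 0.0794, 0.21 against VEH-Sham 5), although 1448306_at rose by 0.68 (SE 0.18, limma adjusted p = 0.0155, 0.41 against VEH-Sham 5). Nfkbiz was at 0.59 (SE 0.27, limma adjusted p = 0.12, 0.73 against VEH-Sham 5) and Myd88 at 0.45 (SE 0.21, limma adjusted p = 0.127, 0.29 against VEH-Sham 5). The receptors were at 0.25 for Tlr3, 0.22 for Tlr2 and -0.06 for Tlr4, with 0.42, 0.60 and 0.16 against VEH-Sham 5.

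The hypoxic ischemia arrays spread widely for the genes that rose. Cd14 ran from 7.19 to 8.73 in EPO-HI and from 7.18 to 9.21 in VEH-HI, against 6.00 to 6.48 in VEH-Sham. Nfkbiz ran from 6.25 to 7.79 in EPO-HI and from 6.26 to 7.98 in VEH-HI, against 6.09 to 6.29 in VEH-Sham. VEH-HI 6 was the highest of the 10 for 6 of the 8 tested members, VEH-HI 8 for Cd14 and EPO-HI 15 for Nfkb2. VEH-HI 6 was among the 4 highest for all 8 members, EPO-HI 15 for 7, and EPO-HI 11 and VEH-HI 8 for 5 each. At the other end, EPO-HI 13 was lowest for 3 members, and EPO-HI 12 and 13 were among the 4 highest for none.

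Cd14 levels of the 10 arrays left a gap of 0.79 between 7.63 and 8.41. Below it lay 5 arrays and above it 5, namely VEH-HI 6, 7 and 8 and EPO-HI 11 and 15. Because the values fall into 2 groups of 5, no correlation between Cd14 and the other members is given. The genes whose levels ran closest to Cd14 over these 10 arrays, out of 13160 other tested genes and ranked by Pearson's r, were Pxn (paxillin of focal adhesions, r = 0.965), the AP-1 gene Fos (0.958), the matricellular gene Ccn1 (0.957), the transglutaminase gene Tgm2 (0.948) and the transcription factor gene Klf4 (0.948). These values only rank the genes, and the same gap in Cd14 enters each of them.

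**Figure D4:**
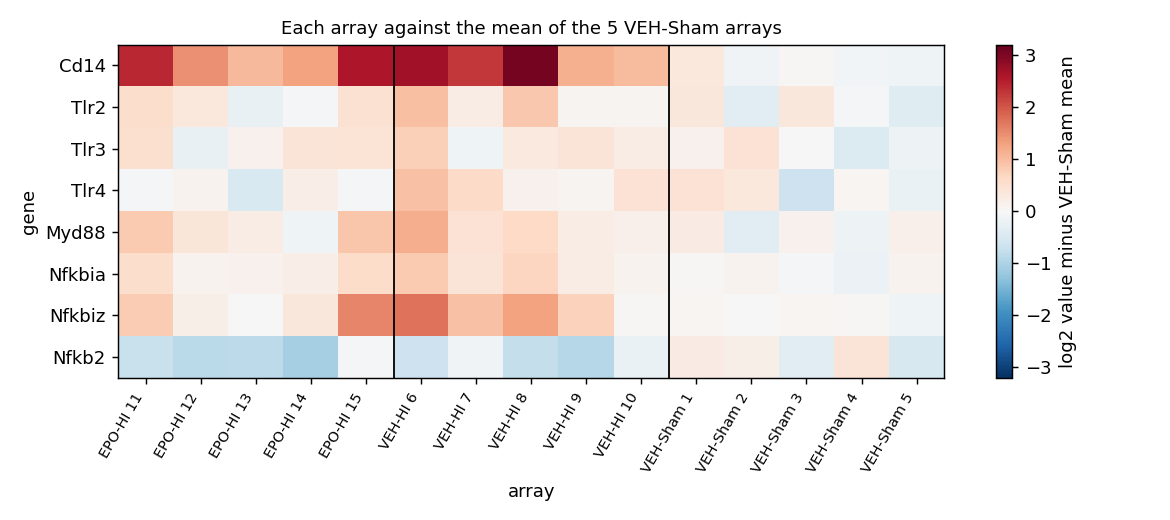
Level of the 8 tested genes in each array minus the mean of the 5 VEH-Sham arrays, on the log2 scale, with red above and blue below that mean. Columns are arrays in the order EPO-HI, VEH-HI and VEH-Sham. Cd14 is red in all 10 hypoxic ischemia arrays and Nfkbiz most strongly in VEH-HI 6, VEH-HI 8 and EPO-HI 15.

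Further genes of the pathway were read from 5 lists with 85 genes, of which 60 were tested. These lists and the marker lists were chosen with earlier results of these data known. Over all tested genes 1573 of 13168 rose and 1510 fell in VEH-HI against VEH-Sham. Of 15 tested NF-kB target genes 9 rose and 0 fell (median 0.82, 0.87 within set B). They included the chemokine gene Ccl3 (2.22, SE 0.34, 1.86 against VEH-Sham 5), Ier3, an early response gene (1.48, SE 0.31, 1.13), Icam1, a leukocyte adhesion gene (1.45, SE 0.31, 1.25), and Ptx3, a secreted pattern recognition gene (1.45, SE 0.27, 1.37). Their limma adjusted p-values were 0.000487, 0.00346, 0.0035 and 0.00186. Ccl3 and Icam1 averaged only 5.07 and 4.84 in VEH-Sham. The Tlr3 probe set 1422781_at, left out as dim, averaged 5.40 to 5.54 in the 3 groups. Ccl3 and Icam1 therefore passed the filter only through the hypoxic ischemia arrays, so their calls are no independent evidence. Of the 22 listed targets, Ccl5, Cxcl2, Tnf, Il6, Ptgs2, C3 and Nos2 were not tested, being too dim or having no probe set with 1 symbol.

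Other receptors and co-receptors split, with 3 of 13 higher and 2 lower (median -0.05, 0.37 within set B). Ly86, which encodes the MD-1 partner of the receptor-like protein CD180, rose by 1.31 (SE 0.18, limma adjusted p = 0.000218, 1.47 against VEH-Sham 5), and Lbp, the lipopolysaccharide-binding protein gene, by 1.14 (SE 0.27, limma adjusted p = 0.00607, 0.40). Tlr12 and Tlr9 were called lower, at -1.12 and -0.93, but lay at 0.01 and -0.25 against VEH-Sham 5. Tlr12 averaged 5.24 in VEH-HI, below the Tlr3 probe set left out as dim, 5.56 in EPO-HI and 6.36 in VEH-Sham. It passed the filter only through the groups where it was higher, so its call is no independent evidence. Of 13 adaptors and kinases 3 rose and 1 fell (median 0.03, 0.01 within set B). Ikbkb, an IκB kinase gene, rose by 0.37 and Tab2 by 0.29, and Map3k14, the kinase gene of the p100 route, was at -0.97 (0.23, 0.04 and -0.15 against VEH-Sham 5). Traf2, a signalling adaptor gene, was called at 0.62, yet at -0.04 against VEH-Sham 5. Traf2 averaged 5.40 in VEH-Sham and passed the filter only through the hypoxic ischemia arrays.

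Of 6 NF-kB and IRF transcription factor genes 0 rose and 1 fell (median 0.14, 0.14 within set B). The faller was Irf5 at -0.60, which was at 0.04 against VEH-Sham 5, while Rela, the gene of the p65 subunit, did not pass (0.27, limma adjusted p = 0.125, 0.68 against VEH-Sham 5). Of 13 further inhibitors 2 rose and 2 fell (median 0.05, 0.11 within set B). Socs3, which restrains cytokine receptors, rose by 1.97 (SE 0.40, limma adjusted p = 0.00294, 1.99 against VEH-Sham 5) and Traf4 by 0.49 (0.32). The deubiquitinase gene Cyld and the RNase gene Zc3h12a were called lower, at -0.37 and -0.81, with -0.03 and 0.03 against VEH-Sham 5. Zc3h12a averaged 5.37 in VEH-HI and 5.32 in EPO-HI, below the Tlr3 probe set left out as dim. It passed the filter only through VEH-Sham, where it averaged 6.19, so its call is no independent evidence. None of these 60 genes passed with the array set as a block.

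In EPO-HI against VEH-HI none of the 60 pathway genes passed with limma. The median was -0.21 for the target genes, with 13 of 15 below 0, and -0.05 for receptors, 0.09 for adaptors and kinases, 0.05 for transcription factors and -0.04 for inhibitors, against -0.01 over all tested genes. Of those, 6837 of 13168 were below 0. The target genes were read on the same arrays, so their signs are not separate evidence. The genes with the smallest p of their lists, all at limma adjusted p = 0.9997, were Ier3 at -0.49 (SE 0.31), Cxcl1, a neutrophil chemokine gene, at -0.41 (SE 0.22), Tlr9 at 0.39 (SE 0.25), Tlr5 at 0.37, Tab3 at 0.27 (SE 0.15), Tbk1 at 0.13, Irf1 at 0.27 (SE 0.14), Irf8 at 0.25, Traf4 at -0.19 and Tnfaip3 at 0.26. Tlr5 averaged 5.21 in VEH-HI and passed the filter only through the other groups.

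**Figure D5:**
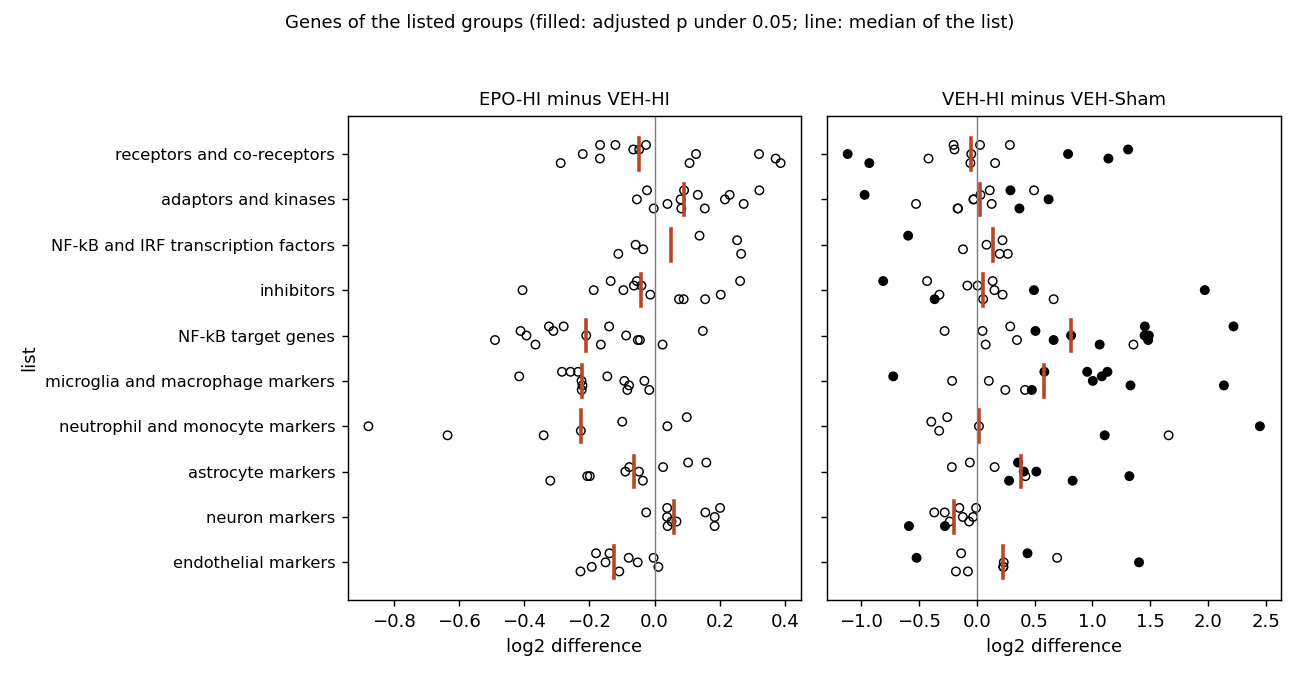
Log2 differences of the genes of 5 pathway lists and 5 marker lists, EPO-HI minus VEH-HI on the left and VEH-HI minus VEH-Sham on the right. Filled points passed at an adjusted p under 0.05 and the line is the median of the list. The median of NF-kB target genes is -0.21 on the left and 0.82 on the right.

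Markers of cell types, among them cells that carry these receptors, were read in VEH-HI against VEH-Sham. In this comparison 11.9% of the 13168 tested genes rose and 11.5% fell. In bulk tissue a change in the number of cells of a type and a change in RNA per cell cannot be told apart. Of 13 tested microglia and macrophage markers 8 rose and 1 fell in VEH-HI against VEH-Sham (median 0.58, 0.73 within set B). With the array set as a block 0 of the 50 tested markers of the 5 marker lists passed. The summed intensity of the microglia and macrophage markers was 2991 to 4326 in EPO-HI, 3709 to 5587 in VEH-HI and 2564 to 3149 in VEH-Sham. The macrophage gene Mpeg1 rose by 2.14, the complement gene C1qc by 1.33 and the signalling adaptor gene Tyrobp by 1.13 (1.11, 1.17 and 0.93 against VEH-Sham 5). The marker that fell was P2ry12, a receptor gene of resident microglia (-0.72, limma adjusted p = 0.00584, -0.55 against VEH-Sham 5), and Tmem119, another resident microglia gene, did not pass (-0.21, 0.044 against VEH-Sham 5). Both were picked after their values were seen. Of 7 tested neutrophil and monocyte markers 2 rose and 0 fell (median 0.018, 0.33 within set B), and their sum was 229 to 1020 in EPO-HI, 246 to 2448 in VEH-HI and 198 to 317 in VEH-Sham, highest in VEH-HI 8. Csf3r rose by 1.11 and S100a9 by 2.45, and S100a8 did not pass at 1.66 (1.09, 1.74 and 1.96 against VEH-Sham 5). Csf3r and S100a9 averaged 4.94 and 4.84 in VEH-Sham and passed the filter only through the hypoxic ischemia arrays. The count of 2 markers that rose is therefore no independent evidence. The other 4 of the 7 markers did not pass, with Elane at 0.018, Mmp9 at -0.26, Mpo at -0.33 and Ngp at -0.39 (0.33, -0.13, -0.017 and 0.27 against VEH-Sham 5). Trem2, Itgam, Ly6g, Camp, Cxcr2, Ccr2 and Ly6c2 were among the markers not tested, being too dim or having no probe set with 1 symbol. In EPO-HI against VEH-HI, 13 of 13 microglia and macrophage markers were below 0 (median -0.22), and none passed. Over all tested genes 6837 of 13168 were below 0. The 13 markers were read on the same arrays, so their signs are not separate evidence. The highest sum of these markers, 5587, was that of VEH-HI 6.

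Of 10 astrocyte markers 6 rose and 0 fell (median 0.38, 0.12 within set B), with a sum of 12273 to 14090 in EPO-HI, 11773 to 15204 in VEH-HI and 9250 to 11915 in VEH-Sham. Of 10 neuron markers, all tested in this forebrain RNA, 0 rose and 2 fell (median -0.19, -0.31 within set B), and their sum was 25637 to 28936 in EPO-HI, 20470 to 30061 in VEH-HI and 26079 to 30807 in VEH-Sham. Of 10 endothelial markers 2 rose and 1 fell (median 0.23, 0.034 within set B), with a sum of 1101 to 1361 in EPO-HI, 979 to 1854 in VEH-HI and 1088 to 1196 in VEH-Sham. The neuron and endothelial counts do not stand far from the shares over all tested genes, 11.9% higher and 11.5% lower. Among astrocyte markers Gfap was at 1.32, Aldh1l1 at 0.83 and Mlc1 at 0.51 (1.17, 0.40 and 0.14 against VEH-Sham 5). Among neuron markers Slc17a7 was at -0.59, Gad1 at -0.28 and Rbfox3, which did not pass, at -0.28 (-0.47, -0.18 and -0.24 against VEH-Sham 5). Among endothelial markers Pecam1 was at 1.40, Slco1a4 at 0.44 and Flt1 at -0.52 (0.015, 0.31 and -0.33 against VEH-Sham 5). Pecam1 averaged 5.10 in VEH-Sham and passed the filter only through the hypoxic ischemia arrays. The part of these cell types in the differences of Cd14 and the other members was not tested.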

How the data were processed

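Total RNA of mouse forebrain had been hybridised to 15 one-colour Affymetrix arrays, and the authors deposited 1 linear intensity for each probe set, scaled to a trimmed mean of 150.0 per array, as the values show. The software that summarised probes was not given in the sources used here. All 15 value columns were matched to samples by name. Of 45101 probe sets 64 controls were left out, 34945 had 1 symbol, 932 several and 9160 none in the platform annotation, and updating against the mouse gene table changed 0 symbols. Intensities were used as log2(intensity + 16), and the 60% brightest probe sets were tested with limma 3.58.1 (R 4.3.3, eBayes with trend, 3 group means, two-sided, Benjamini-Hochberg). The number of arrays limits the precision. The test was checked on simulated data, which held no difference between array sets, so that check does not bear on the split of the VEH-Sham arrays. Figures used matplotlib 3.10.9.

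Members, lists and tests were chosen with earlier results of these data known. Named were all members, per pathway list up to 4 genes by smallest p (VEH-HI against VEH-Sham) plus 2 by smallest p (EPO-HI against VEH-HI), per marker list up to 3, and the 5 genes closest to Cd14. Alternatives changed the pseudocount, filter, scaling, variance model, arrays in the fit, array set, probe set choice and each single array.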

Additional observations from a re-analysis of the deposited data

How the results depend on the processing

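No paired analysis was possible because the replicate numbers run from 1 to 15 and no groups share one. In VEH-HI against VEH-Sham the 3 members called became 0 with the array set as a block and 0 within set B, 6 after quantile normalization, 7 with equal array medians and 2 to 5 when leaving out each array in turn. In EPO-HI against VEH-Sham the 2 called became 0 with the block, 0 within set B, 1 with only the 40% brightest probe sets, where 4 members were tested, 1 with the mean over probe sets, 5 with equal array medians, 3 after quantile normalization, 3 with only the 2 groups compared in the fit, which added Nfkbia, and 1 to 2 without single arrays. In EPO-HI against VEH-HI the count was 0 under every alternative run. Equal array medians moved the median difference of all tested probe sets from -0.06 to 0.18 in VEH-HI against VEH-Sham, where 6614 of 7727 calls were then higher, against 3051 of 5720 after quantile normalization and 2661 of 6174 as reported. Without single arrays 3800 to 9616 probe sets were called there. In EPO-HI against VEH-Sham equal array medians moved that median from -0.05 to 0.22. Then 8603 of 27022 probe sets were called, 7627 of them higher. Quantile normalization gave 4104 calls, the 2 groups alone 4559, single arrays left out 2452 to 9066 and the reported fit 4939. With only the 40% brightest 3008 of 18015 were called, and with the mean over probe sets 2286 of 13168 genes. The sign of Tlr4 in EPO-HI against VEH-Sham (-0.06) turned against VEH-Sham 5 alone (0.16, the same with the block and within set B). It also turned with equal array medians (0.21) and quantile normalization (0.20), and ran from -0.23 to 0.057 without single arrays. That of Nfkbiz turned to -0.083 with the mean over probe sets. In EPO-HI against VEH-HI, Tlr3 ran from -0.18 to 0.052 and Myd88 from -0.20 to 0.070 without single arrays. The cause was not tested. The planned correlations of Cd14 with other members were not run, since its levels fell into 2 groups of arrays. Signal over background could not be judged, as no detection calls were used here.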
